A study of Mus musculus with 24 samples.

Results

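Chromatin accessibility around 10 cytokine receptor genes (Il9r, Il21r, Il4ra, Il10ra, Il6ra, Il6st, Ifngr1, Ifnar1, Tgfbr1 and Tgfbr2) was followed in germinal center (GC) B cells that had lost 1 allele of Crebbp, of Kmt2d or of both. A peak of the consensus peak table was assigned to a receptor when it overlapped the gene body or lay within 50 kb of it (mm10, GENCODE M21 annotation), which gave 138 of 65483 peaks. Per gene this was 25 peaks for Tgfbr2, 23 for Il6ra, 19 for Il21r, 17 each for Il4ra and Tgfbr1, 13 for Il9r, 12 for Ifnar1, 11 for Il10ra, 8 for Ifngr1 and 6 for Il6st. Il21r and Il4ra are neighbors on chromosome 7 and shared 13 of these peaks. Of the 138 peaks, 10 were the receptors' own promoters, within 1 kb of a start of the gene. Another 13 were promoters of other coding genes, 33 lay in a gene body and 82 (59.4%) in the flanks.

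The data were bulk ATAC-seq libraries, which count DNA fragments from open chromatin, made from GC B cells sorted from the spleen 10 days after immunization with sheep red blood cells. All mice carried the Cγ1 cre/+ allele, whose Cre is switched on as B cells enter the GC response. WT mice carried this allele alone (n = 4), C mice also Crebbp fl/+ (n = 4), K mice Kmt2d fl/+ (n = 4), and CK mice both floxed alleles (n = 5). The study describes the animals as 8-week-old females on a C57BL/6J background, with 1 library per mouse and sex- and age-matched littermates as controls. Because only 1 allele was floxed, each mutant genotype models heterozygous loss, and the deletions themselves were not checked here.

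CREBBP is a histone acetyltransferase and KMT2D a histone H3 lysine 4 methyltransferase, and both act largely at enhancers. GC B cells depend on cytokines from T follicular helper cells and stromal cells. IL-21 and IL-4, read by Il21r and Il4ra together with the common γ chain, sustain proliferation, BCL6 expression and class switching, and IL-9, read by Il9r and the same chain, has been tied to memory B cells. IL-6 binds the Il6ra product and signals through gp130, encoded by Il6st. IL-10, interferon γ and type I interferons bind receptors that include the Il10ra, Ifngr1 and Ifnar1 chains, and these interleukin and interferon receptors signal through JAK kinases and STAT factors. TGFβ binds the type II receptor kinase (Tgfbr2), which then activates the type I kinase (Tgfbr1) and SMAD factors, a pathway that restrains B-cell growth.

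The 5 regions shown first are the receptor peaks that lost accessibility in CK and hold 1 of 3 searched motifs in their central 300 bases. The motifs were a STAT site (TTCNNNGAA), the PU.1/SPIB site GAGGAAGT and the octamer ATGCAAAT bound by OCT factors, searched on both strands. All sequences are the + strand of mm10, with the motif in capitals, and an octamer on the - strand reads ATTTGCAT. A match is a description of the letters and not a measured binding site.
Il21r, PU.1/SPIB site, chr7:125630239-125630538: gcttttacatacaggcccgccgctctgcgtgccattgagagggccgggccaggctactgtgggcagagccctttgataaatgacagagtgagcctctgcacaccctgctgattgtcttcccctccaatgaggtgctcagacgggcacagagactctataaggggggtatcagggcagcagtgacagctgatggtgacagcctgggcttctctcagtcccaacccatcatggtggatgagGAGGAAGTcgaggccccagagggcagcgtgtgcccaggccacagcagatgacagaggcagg
Il21r window, intron of Gtf3c1, STAT site, chr7:125680112-125680411: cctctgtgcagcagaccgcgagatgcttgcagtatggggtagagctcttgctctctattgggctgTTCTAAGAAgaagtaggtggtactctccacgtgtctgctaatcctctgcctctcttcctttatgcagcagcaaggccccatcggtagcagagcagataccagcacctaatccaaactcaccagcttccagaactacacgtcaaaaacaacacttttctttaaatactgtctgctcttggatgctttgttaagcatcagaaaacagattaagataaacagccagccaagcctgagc
Tgfbr1 intron, STAT site, chr4:47359423-47359722: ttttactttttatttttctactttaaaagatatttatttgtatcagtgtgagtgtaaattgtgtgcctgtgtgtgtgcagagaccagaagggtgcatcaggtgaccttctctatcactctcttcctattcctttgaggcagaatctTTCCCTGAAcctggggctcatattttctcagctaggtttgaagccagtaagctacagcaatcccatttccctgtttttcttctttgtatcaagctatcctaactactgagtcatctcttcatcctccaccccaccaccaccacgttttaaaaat
Tgfbr2 upstream, STAT site, chr9:116178205-116178504: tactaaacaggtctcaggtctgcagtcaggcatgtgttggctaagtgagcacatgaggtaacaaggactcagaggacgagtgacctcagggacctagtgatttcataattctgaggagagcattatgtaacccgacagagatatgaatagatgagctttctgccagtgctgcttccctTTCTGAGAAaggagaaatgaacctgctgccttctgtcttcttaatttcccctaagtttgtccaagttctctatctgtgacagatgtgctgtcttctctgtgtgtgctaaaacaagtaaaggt
Tgfbr2 far upstream, octamer on the - strand, chr9:116219492-116219791: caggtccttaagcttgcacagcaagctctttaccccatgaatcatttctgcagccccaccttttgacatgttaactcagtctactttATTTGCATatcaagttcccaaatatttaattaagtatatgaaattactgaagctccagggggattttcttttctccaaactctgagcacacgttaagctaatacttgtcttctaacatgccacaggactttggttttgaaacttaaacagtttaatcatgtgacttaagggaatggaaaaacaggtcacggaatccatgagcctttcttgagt
None of these 300-base windows overlaps an annotated exon of the receptor genes. The other 10 lost receptor peaks hold none of the 3 motifs in this window.

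Depth ran from 17483706 to 21857738 fragments in peaks per library, and a receptor peak had a median of 164 fragments per library against 85 for all peaks. Promoter peaks of all 10 GC B-cell markers were present, with a summed level of 851 to 939 CPM (fragment counts scaled to library size with TMM factors) in WT and 788 to 864 in CK. No peak was found at the promoters of 3 NK-cell markers or at 5 of 6 T-cell markers (Cd3d being the exception), and the 2 of 5 myeloid markers with a peak summed to at most 8.33 CPM. Promoters of 3 of 3 plasma-cell markers summed to between 181 and 213 CPM, and 2 of 3 erythroid markers had a peak, at a sum of 46.3 to 56.2 CPM. Of the naive B-cell markers, the promoter peak of Cr2 had mean levels of 35.9 CPM in WT and 34.8 CPM in C, against 36.8 CPM in both K and CK. That of Fcer2a had 28.5 CPM in WT and 23.2 CPM in C, against 16.3 CPM in K and 17.3 CPM in CK, and passed in 2 of the 3 comparisons with WT (edgeR). The part of these cells in the receptor results was not tested. In bulk libraries, fewer cells with an open site and a lower opening per cell cannot be told apart. Fragments over Y-linked genes were present in 9 of the 17 libraries, at 56.5 CPM or more against at most 0.057 CPM in the rest, which goes against the stated sex. They occurred in 2 of 4 WT, 2 of 4 C, 3 of 4 K and 2 of 5 CK libraries, and adding their presence to the model moved no count of receptor calls by over 1.5 times. The summed signal of all peaks on Y, which was present in every library (249 to 573 CPM in WT, 545 to 1006 in C, 369 to 473 in K and 429 to 718 in CK), had a different effect as a covariate. With it the receptor peaks called against WT went from 3 to 0 in C, from 3 to 1 in K and from 16 to 4 in CK, the receptor sums called in CK from 3 to 1, and all peaks called in CK from 2320 gained and 2158 lost to 367 and 338. All peaks called in C went from 39 gained and 66 lost to 0 and 0. The range of this signal differed between the genotypes, so its effect and that of genotype cannot be fully told apart in this fit.

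The receptor peaks that changed mainly lost accessibility, and CK had the most of them. In CK against WT, 15 of the 138 receptor peaks lost accessibility and 1 gained it (edgeR quasi-likelihood test, adjusted p under 0.01 over all 65483 peaks). Among all peaks 6.84% changed in this comparison and 3.30% were lost, against 10.9% of the receptor peaks. Of peaks over 1 kb from a coding start 3.89% were lost, against 11.3% of the 115 receptor peaks in gene bodies and flanks. The shares were not matched for depth, with a median of 164 fragments per receptor peak against 85 for all peaks. The split over all peaks was 2320 gained and 2158 lost (51.8% gained), or 1469 and 3340 (30.5%) with normalization within GC bins. In K against WT 3 receptor peaks were lost, where 1.48% of all peaks changed. In C against WT 1 receptor peak was gained and 2 were lost, against 0.160% of all peaks, and all 3 lay in the Il9r window. Outside that window 0 of 125 receptor peaks changed in C (9 at an unadjusted p under 0.05, and 0 with DESeq2), 2 in K and 12 in CK, all of them lost. With the signal on Y as a covariate 0 of these passed in C, K or CK, and the 4 peaks then called in CK all lay in the Il9r window. The 3 comparisons share the WT libraries and are not independent of each other.

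Direct comparisons between the mutant genotypes called 5 receptor peaks or fewer each. CK was lower than C at 5 receptor peaks (1.68% of all peaks changed), and K was lower than C at 3 and higher at 1 (0.788% of all peaks). No receptor peak differed between CK and K (16 at an unadjusted p under 0.05 and 2 called by DESeq2, against 0.00916% of all peaks with edgeR). A test of the interaction (whether the CK change departed from adding up those of C and K on the log scale) called 0 receptor peaks (3 at an unadjusted p under 0.05, 0 with DESeq2), where 0.0107% of all peaks were called. The median log2 fold change (log2FC) of the 138 peaks was -0.03 in C, -0.09 in K and -0.12 in CK, each against a median of all peaks within 0.01 of 0. The 115 receptor peaks in gene bodies and flanks had medians of -0.04 in C, -0.11 in K and -0.14 in CK. All peaks over 1 kb from a coding start had 0.007 in C and -0.03 in both K and CK. In CK 95 of the 138 peaks (68.8%) had a log2FC below 0, against 49.4% of all peaks and 54.6% of those over 1 kb from a coding start.

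Of the receptors' 10 own promoters, 0 were called in CK against WT by edgeR or DESeq2 (1 at an unadjusted p under 0.05), where 1.48% of all peaks within 1 kb of a coding start were lost. Of the 10, 8 (80.0%) had a log2FC below 0, with a median of -0.04, against 33.5% of all such peaks, with a median of 0.06. Over the whole table, these peaks split into 1393 gained and 239 lost of 16179. In the gene bodies 5 of 33 receptor peaks were lost and 1 was gained, in the flanks 8 of 82 were lost, and at promoters of other coding genes 2 of 13 were lost. Across the table, peaks further than 1 kb from a coding start split into 927 gained and 1919 lost of 49304. Of the 15 lost receptor peaks, 5 lay within 10 kb of a start site of the receptor and 10 further away, and for 9 the receptor's was the nearest coding start.

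**Figure D1:**
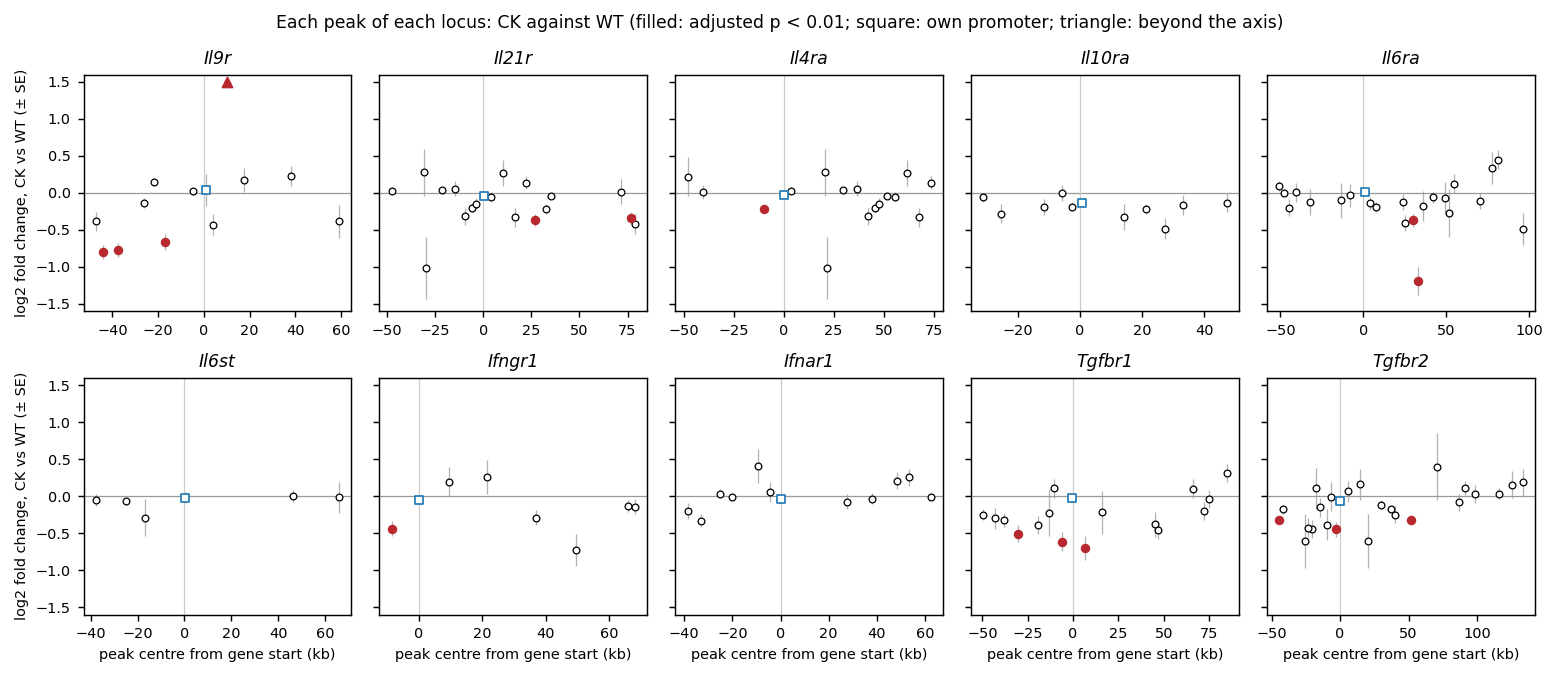
Log2 fold change in CK against WT (y axis) of each peak of the 10 loci, by the position of its center relative to the start of the receptor gene in kb (x axis), with filled symbols for adjusted p under 0.01 and squares for own promoters. Filled symbols below 0 number 15 and lie in 7 of the 10 loci, and the squares sit close to 0.

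Every CK library lay below every WT library at 25 receptor peaks (18.1%), against 6.39% of all peaks, and above every WT library at 3. The receptor's own promoter ranged in WT from 3.03 ± 0.634 CPM (SD, n = 4) at Il9r to 152 ± 6.80 CPM at Il21r. Its log2FC in CK lay between -0.13 at Il10ra and 0.039 at Il9r. The Il10ra promoter was the 1 own promoter at which CK (21.1 to 24.8 CPM) stayed below all WT libraries (24.9 to 25.5 CPM), with an adjusted p of 0.149. Of the strongest distal peak of each locus, over 2500 bp from any coding start, 3 were lost in CK, those of Il9r, Tgfbr1 and Tgfbr2. Those of Il21r, Il4ra, Il6st, Ifngr1 and Ifnar1 had log2FC between -0.13 and 0.035, and those of Il10ra and Il6ra had -0.22 (adjusted p = 0.0264) and -0.19 (adjusted p = 0.0481).

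**Figure D2:**
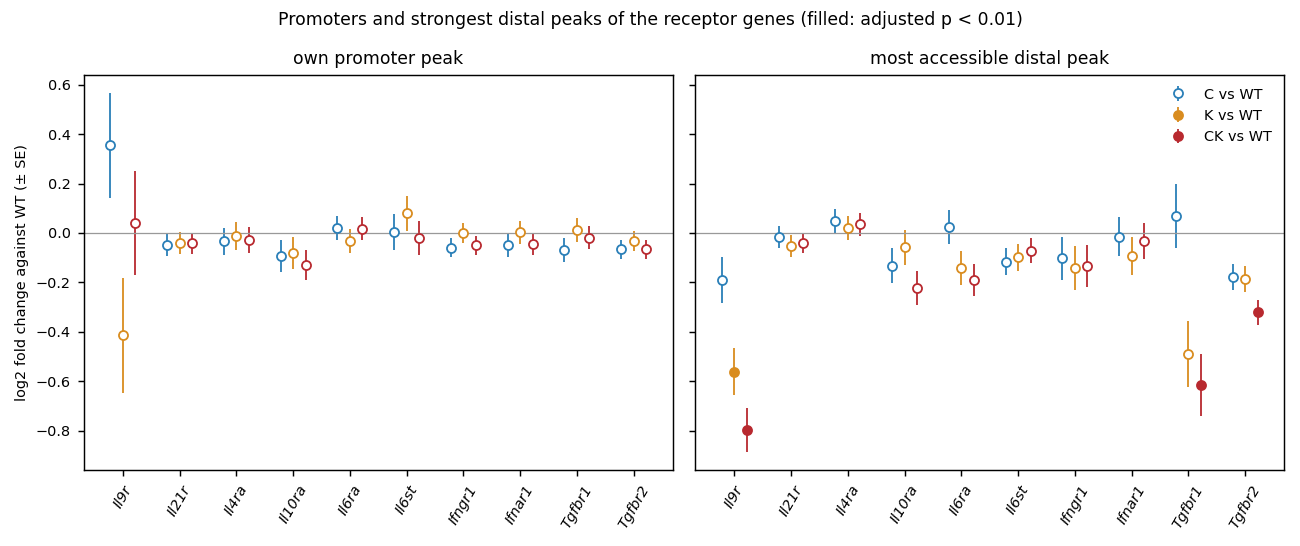
Log2 fold change against WT (y axis) of the own promoter and of the strongest distal peak of each receptor gene (x axis), for C, K and CK, with error bars for the standard error and filled symbols for adjusted p under 0.01. The promoter values sit near 0 apart from the low-count intronic peak taken as the Il9r promoter. The distal peaks of Il9r, Tgfbr1 and Tgfbr2 lie below 0 in CK.

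The TGFβ receptors carried 6 of the 15 lost peaks, 3 of 17 peaks at Tgfbr1 and 3 of 25 at Tgfbr2. Over all receptor loci 15 of 138 peaks were lost, and whether the TGFβ receptors differed from the rest was not tested. At Tgfbr1 (chr4:47353222-47414931, + strand), 14 of 17 peaks had a log2FC below 0 in CK and 3 were lost. The strongest distal peak, chr4:47346469-47347452, 5.8 kb upstream of the gene, had 20.1, 21.98, 26.6 and 29.4 CPM in the WT libraries and 15.8, 13.9, 12.7, 17.9 and 19.7 CPM in CK. All CK libraries lay below all WT libraries there, as did all K libraries at 16.5, 16.1, 17.5 and 19.5 CPM, while C at 22.5, 21.02, 27.4 and 32.1 CPM overlapped WT. The change was log2FC -0.62 ± 0.13 (SE), adjusted p = 0.00175 in CK against WT and log2FC -0.68, adjusted p = 0.00239 in CK against C, and K against WT did not pass at log2FC -0.49, adjusted p = 0.0303. A second upstream peak, chr4:47322280-47322938, fell from 12.2 ± 0.701 CPM in WT to 8.54 ± 1.18 CPM in CK (log2FC -0.51, adjusted p = 0.00411), and its nearest coding start is that of Col15a1. The intronic peak that holds the STAT site, chr4:47358806-47360338, fell from 3.97 ± 0.778 to 2.46 ± 0.565 CPM (log2FC -0.70, adjusted p = 0.00514). Another upstream peak, chr4:47314031-47315994, changed in K and not in CK at the threshold, with 19.8 to 24.4 CPM in WT (n = 4), 16.3, 12.1, 17.6 and 16.5 CPM in K and 18.02, 17.1, 18.6, 17.5 and 14.7 CPM in CK. Its change was log2FC -0.46, adjusted p = 0.00991 in K and log2FC -0.32, adjusted p = 0.0245 in CK, and the difference between these 2 genotypes did not pass (log2FC 0.14 ± 0.10 (SE), adjusted p = 0.837). The Tgfbr1 promoter stayed at 109.9 ± 6.47 CPM in WT and 108 ± 5.16 CPM in CK (n = 4 and 5).

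At Tgfbr2 (chr9:116084293-116175360, - strand), which encodes the ligand-binding kinase, 3 of 25 peaks were lost. The most accessible of them, chr9:116218808-116220474, lies 43.4 kb upstream, inside the transcript Gm31410, and holds the octamer printed above. It had 71.8, 65.3, 67.9 and 71.6 CPM in WT, 59.2, 59.6, 62.4 and 63.1 CPM in C, 56.3, 58.7, 62.6 and 65.01 CPM in K and 59.1, 51.04, 55.1, 54.3 and 56.98 CPM in CK. Each mutant genotype lay wholly below WT, and CK also wholly below C. The change in CK was log2FC -0.32 ± 0.05 (SE), adjusted p = 0.000125, whereas C (log2FC -0.18, adjusted p = 0.179) and K (log2FC -0.19, adjusted p = 0.0338) did not pass. The peak with the STAT site 2.9 kb upstream, chr9:116178228-116178481, fell from 10.5 ± 0.612 to 7.66 ± 0.765 CPM (log2FC -0.45, adjusted p = 0.00306). An intronic peak, chr9:116122568-116123997, had 36.9, 38.4, 35.7 and 45.4 CPM in WT and 32.5, 30.04, 30.1, 31.2 and 32.2 CPM in CK, without overlap. It passed against WT (log2FC -0.32, adjusted p = 0.00159) and against C (log2FC -0.29, adjusted p = 0.00941). The Tgfbr2 promoter had 90.1 ± 1.55 CPM in WT and 85.96 ± 3.24 CPM in CK, and its change did not pass (adjusted p = 0.242).

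Among the common γ chain family, Il21r (chr7:125603429-125633570, + strand) lost an internal peak wherever Kmt2d was heterozygous. This peak, chr7:125630002-125630774, covers the start of a coding exon (exon 8 of Il21r-201) and the intron before it, which holds the PU.1/SPIB site. WT had 18.9, 18.5, 18.7 and 21.8 CPM and C 18.5, 18.6, 20.2 and 21.5 CPM. K had 13.9, 13.7, 15.4 and 15.6 CPM and CK 16.1, 14.3, 17.3, 14.05 and 13.8 CPM, so that no K or CK library reached the lowest WT or C library. The peak fell in K (log2FC -0.41 ± 0.09 (SE), adjusted p = 0.00673) and in CK (log2FC -0.36 ± 0.08 (SE), adjusted p = 0.0034). CK and K were each lower than C (log2FC -0.38, adjusted p = 0.00684 and log2FC -0.42, adjusted p = 0.00764), and C against WT had log2FC 0.015 (adjusted p = 0.979). In the same window an intronic Gtf3c1 peak with a STAT site, chr7:125679825-125680698, fell from 18.9 ± 1.70 to 15.01 ± 1.49 CPM in CK (log2FC -0.34, adjusted p = 0.00587). The other 17 Il21r peaks did not pass in CK, among them the promoter at 152 ± 6.80 CPM in WT and 148 ± 6.23 CPM in CK and the strongest distal peak at 75.6 ± 1.35 and 73.5 ± 2.25 CPM.

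Il4ra (chr7:125552120-125579474, + strand), the receptor for IL-4, lost 1 of 17 peaks in CK. It lies 9.2 kb upstream of the gene at chr7:125541491-125542914. WT had 45.7 ± 1.75 CPM and C 41.8 ± 1.59 CPM, whereas K had 38.7 ± 2.93 CPM and CK 39.3 ± 1.80 CPM (log2FC -0.22, adjusted p = 0.00617). Its CK libraries (36.9 to 41.6 CPM) stayed below all WT libraries (44.1 to 47.6 CPM). The Il4ra promoter had 47.4 ± 1.82 CPM in WT and 46.5 ± 3.80 CPM in CK, and its most accessible distal peak, shared with Il21r, 67.4 ± 0.952 and 69.1 ± 3.58 CPM. Neither difference passed (adjusted p = 0.773 and 0.68).

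**Figure D3:**
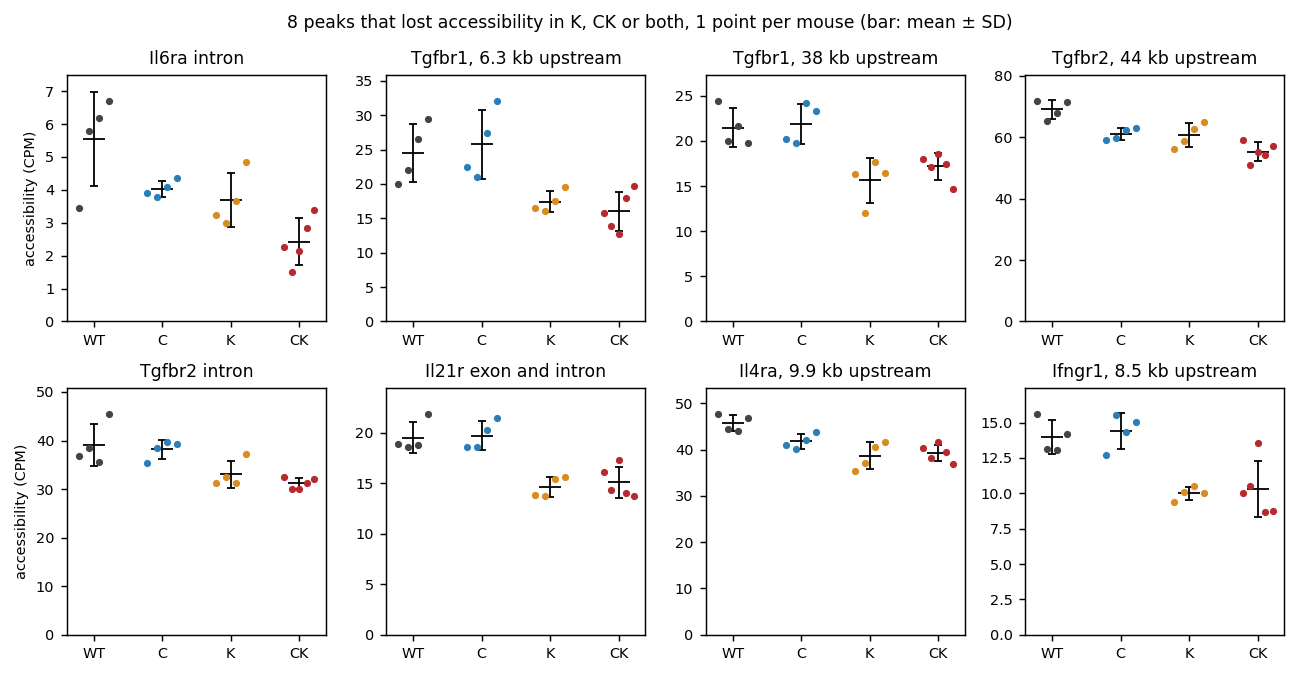
Accessibility in CPM (y axis, from 0) of 8 receptor peaks that lost accessibility in K, CK or both, with 1 point per mouse for WT, C, K and CK (x axis) and bars for the mean ± SD. In the Il21r and the nearest Tgfbr1 and Ifngr1 upstream peaks the C points sit with WT and the K points with CK.

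Of the IL-6 receptor genes, Il6ra (chr3:89864059-89913196, - strand), the IL-6-binding chain, lost 2 of 23 peaks in CK, both intronic. The smaller one, chr3:89880198-89880732, had 3.46, 5.80, 6.19 and 6.70 CPM in WT, 3.92, 3.79, 4.09 and 4.35 CPM in C, 3.24, 3.002, 3.66 and 4.84 CPM in K and 2.26, 1.51, 2.13, 2.84 and 3.40 CPM in CK. All CK libraries lay below all WT and all C libraries, and C and K each overlapped WT. The change in CK was the most negative among the 15 lost peaks (log2FC -1.19 ± 0.19 (SE), adjusted p = 0.000167), and K (log2FC -0.58, adjusted p = 0.0741) and C (log2FC -0.46, adjusted p = 0.448) did not pass. The other, chr3:89882403-89884047, fell from 23.6 ± 2.62 to 18.2 ± 1.22 CPM (log2FC -0.37, adjusted p = 0.00457). At Il6st (chr13:112464070-112510086, + strand), which encodes the signaling chain gp130, 0 of 6 peaks were called in CK by edgeR or DESeq2, and 0 had an unadjusted p under 0.05. Its promoter had 38.3 ± 3.20 CPM in WT and 37.8 ± 3.81 CPM in CK.

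Il10ra (chr9:45253837-45269149, - strand), the ligand-binding chain of the IL-10 receptor, had 0 of 11 peaks called in CK by edgeR or DESeq2. An unadjusted p under 0.05 was found at 5 of them, and at 18912 of all 65483 peaks (edgeR). Of its 11 peaks 10 had a log2FC below 0, with a median of -0.18. Ifngr1 (chr10:19591949-19610229, + strand), which encodes the interferon γ-binding chain, lost 1 of 8 peaks, chr10:19582296-19584631, 7.3 kb upstream, with 15.6, 13.1, 13.1 and 14.2 CPM in WT and 12.7, 15.6, 14.4 and 15.1 CPM in C. K had 9.39, 10.1, 10.5 and 10.1 CPM, wholly below WT, and CK 9.99, 10.6, 13.5, 8.67 and 8.76 CPM, where 1 library (13.5 CPM) overlapped WT. The peak passed in CK against WT (log2FC -0.44, adjusted p = 0.0069) and against C (log2FC -0.48, adjusted p = 0.00843), and in K it had log2FC -0.48, adjusted p = 0.014. Ifnar1 (chr16:91485238-91507441, + strand), a chain of the type I interferon receptor, had 0 of 12 peaks called in CK with edgeR (2 at an unadjusted p under 0.05, 1 called with DESeq2), and its promoter stood at 62.98 ± 1.57 CPM in WT and 61.1 ± 3.07 CPM in CK.

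Il9r (chr11:32187541-32200279, - strand) had the largest change among the receptor peaks, and the only gain. The gained peak, chr11:32189791-32190877, lies over the last exon of Il9r, across the end of the coding sequence and the 3′ UTR. It was close to closed in WT (0.372, 0.313, 0.141 and 0.111 CPM) and open in C (5.29, 4.47, 7.23 and 6.53 CPM) and CK (3.45, 4.85, 6.01, 3.14 and 4.90 CPM). In K, 3 libraries were at the WT level and 1 was not (0.425, 0.566, 3.72 and 0.323 CPM). The gain was log2FC 4.62 ± 0.53 (SE), adjusted p = 4.59e-05 in C and log2FC 4.22 ± 0.54 (SE), adjusted p = 2.01e-05 in CK, while K against WT did not pass (log2FC 2.39, adjusted p = 0.0417). CK did not differ detectably from C (log2FC -0.39, adjusted p = 0.506), and K was lower than C (log2FC -2.23, adjusted p = 0.00316). The peak taken as the Il9r promoter is a 236 bp intronic peak 774 bp from the nearest Il9r start, which it does not cover. Not scaled to peak length, it had the lowest level of the 10 own promoters, at 2.39, 3.34, 2.62 and 3.77 CPM in WT. In CK it had 2.51, 3.55, 4.45, 1.99 and 2.996 CPM, and its change did not pass (adjusted p = 0.93).

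The other changed peaks of the Il9r window belong to neighboring genes. The Rhbdf1 promoter peak, chr11:32216748-32217505, had 12.3, 12.3, 12.7 and 11.7 CPM in WT, 7.74, 7.76, 8.49 and 7.96 CPM in C, 12.9, 13.2, 8.58 and 11.7 CPM in K and 8.17, 8.45, 6.58, 7.82 and 7.84 CPM in CK. It was lost in C (log2FC -0.62, adjusted p = 0.00657) and CK (log2FC -0.66, adjusted p = 0.000188), with both genotypes wholly below WT, and K was higher than C (log2FC 0.54, adjusted p = 0.00891). The Nprl3 promoter peak, chr11:32237145-32238872, showed the same order, with 42.5, 42.3, 44.1 and 44.7 CPM in WT, 28.7, 29.4, 32.8 and 29.5 CPM in C, 40.6, 41.7, 25.02 and 39.03 CPM in K and 23.6, 27.8, 25.8, 25.4 and 24.8 CPM in CK. Its change was log2FC -0.53, adjusted p = 0.00776 in C and log2FC -0.77, adjusted p = 1.16e-05 in CK. At all 3 of these peaks K replicate 3 lay with C and CK and apart from the other K libraries. Without that library, CK differed from K at the gained Il9r peak (log2FC 3.36, adjusted p = 5.43e-07), the Rhbdf1 promoter (-0.70, 0.000516) and the Nprl3 promoter (-0.67, 4.65e-07), so that the count of 0 receptor peaks between CK and K became 3.

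These 3 peaks were part of a wider stretch. Within 5 Mb of Il9r 18 of 241 peaks changed in C against WT, whereas 0 changed within 5 Mb of any of the other 9 receptor genes, and 43 of the 105 peaks changed in C lay on chromosome 11. At all 18, K replicate 3 was nearer to the C mean than to the WT mean, against 3, 3 and 1 of 18 for the other K libraries, 17 to 18 for the CK libraries and 0 for the WT libraries. These peaks were chosen for a difference between C and WT, so the WT count was close to fixed by that choice. The cause of this regional change was not tested. The fourth changed peak, chr11:32243446-32245327, in Nprl3, followed another order. WT had 19.6, 20.9, 22.5 and 27.6 CPM, C 18.4, 19.8, 19.8 and 21.5 CPM, K 14.4, 16.5, 13.3 and 17.1 CPM and CK 12.8, 13.1, 12.4, 13.6 and 13.1 CPM. K and CK lay wholly below WT, and CK wholly below C, with K replicate 3 among the other K libraries. The peak was lost in K (log2FC -0.56, adjusted p = 0.0014) and in CK (log2FC -0.80, adjusted p = 5.74e-06), and CK was lower than C (log2FC -0.61, adjusted p = 0.000587).

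**Figure D4:**
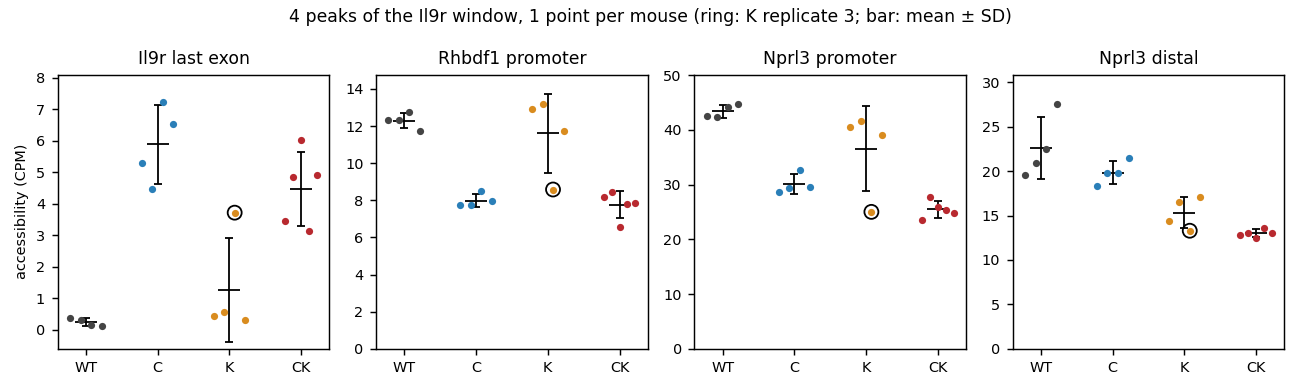
Accessibility in CPM (y axis) of the 4 changed peaks of the Il9r window, with 1 point per mouse for WT, C, K and CK (x axis), bars for the mean ± SD and a ring around K replicate 3. The ringed point sits with C and CK in the gained Il9r peak (3.72 CPM) and both promoter peaks, and with the other K points in the distal Nprl3 peak (13.3 CPM).

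Summed over all peaks of a locus, accessibility was lower in CK at 3 of the 10 receptors (adjusted p under 0.01 over 18082 coding gene loci). Among all loci 11.6% changed in this comparison and 3.75% were lower, with 1415 higher and 678 lower (67.6% higher) and a median log2FC of 0.03. With a normalization within bins of GC content that split became 743 higher and 3900 lower, and 6 receptor sums passed, all lower. Tgfbr2 had 442, 425, 415 and 439 CPM in WT, 394, 405, 414 and 414 CPM in C, 385, 394, 401 and 416 CPM in K and 390.4, 386, 387, 382 and 377 CPM in CK. The CK libraries lay below every WT library, as did the C libraries, and K overlapped WT by 1 library. The change was log2FC -0.16 ± 0.03 (SE), adjusted p = 0.000246. Tgfbr1 had 251, 249, 256 and 278 CPM in WT and 233, 212, 222, 234 and 239 CPM in CK, without overlap (log2FC -0.18 ± 0.04 (SE), adjusted p = 0.00353). Il9r had 242, 244, 237 and 263 CPM in WT and 211, 218, 216, 219.8 and 224 CPM in CK, again without overlap (log2FC -0.18 ± 0.04 (SE), adjusted p = 0.00155). With a window of 25 kb in place of 50 kb the Il9r sum turned in sign, to a log2FC of 0.03, and was not called. Without the 3 peaks of the regional change it no longer passed (log2FC -0.08, adjusted p = 0.101).

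Ifngr1 (159.9, 151, 152 and 156 CPM in WT and 149, 142, 144, 142 and 138 CPM in CK) and Il6ra (299, 295, 296 and 303 and 294, 272, 278, 286 and 291 CPM) also had every CK library below every WT library, but missed the threshold (log2FC -0.11, adjusted p = 0.0108 and log2FC -0.07, adjusted p = 0.0571). Il10ra had log2FC -0.17 (adjusted p = 0.0223) with overlapping groups. Il21r, Il4ra, Il6st and Ifnar1 lay between -0.076 and -0.013, with adjusted p from 0.105 to 0.795. DESeq2 called 4 of the 10 sums lower, Ifngr1 being the fourth. The calls leaned on WT replicate 4. Without it Tgfbr2 alone passed among the sums (adjusted p = 0.00178), Il9r and Tgfbr1 had adjusted p of 0.0123 and 0.0264, and 6 receptor peaks passed in place of 16, which were the 4 of the Il9r window, the smaller Il6ra intronic peak and the octamer peak of Tgfbr2.

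**Figure D5:**
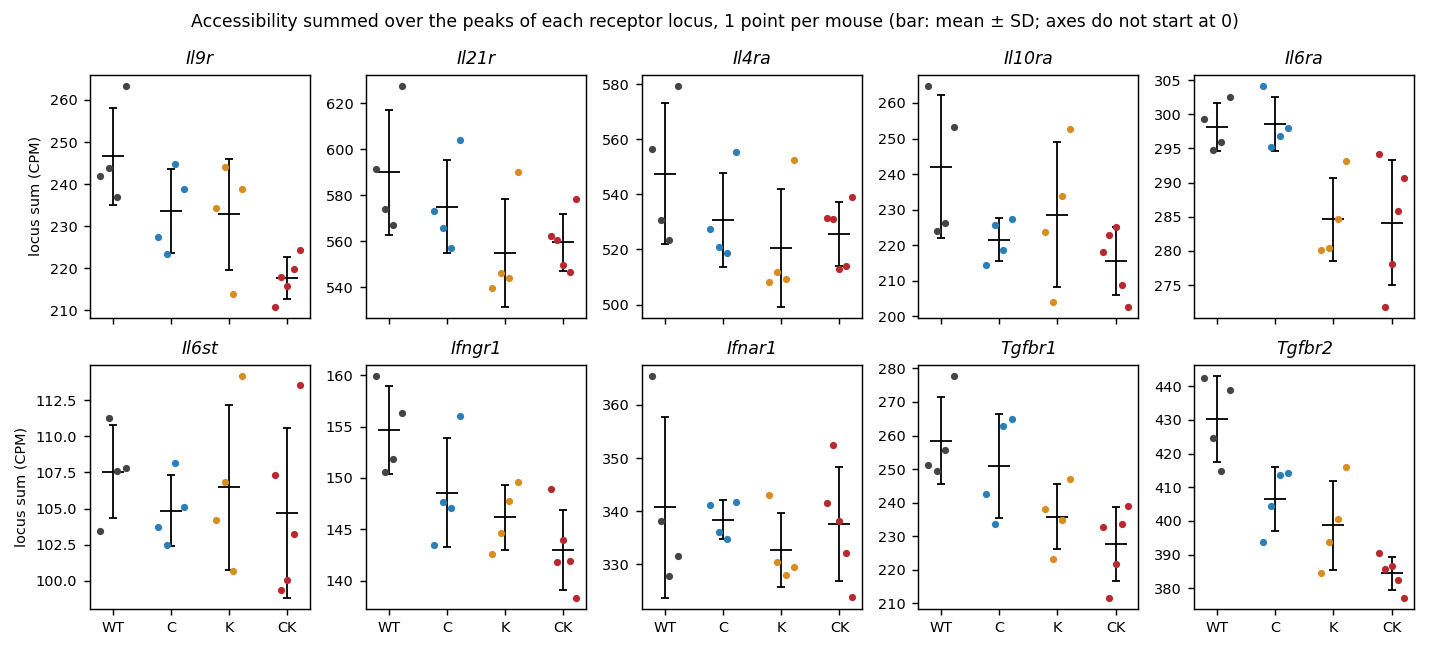
Summed accessibility in CPM (y axis, not starting at 0) of each of the 10 receptor loci, with 1 point per mouse for WT, C, K and CK (x axis) and bars for the mean ± SD. The CK points lie below all WT points at Il9r, Il6ra, Ifngr1, Tgfbr1 and Tgfbr2 and overlap them at the other 5 loci. Among all 18082 loci, 5.97% had CK wholly below WT.

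In the single heterozygotes no receptor sum passed. In K all 10 sums had a log2FC below 0, 6 had an unadjusted p under 0.05, and the lowest adjusted p was 0.022 at Tgfbr2 (log2FC -0.11), followed by Tgfbr1 (log2FC -0.13, adjusted p = 0.0635). Of all 18082 loci, 34.3% had a log2FC below 0 in K and 4861 had an unadjusted p under 0.05. The median of all loci in K was 0.03, and -0.02 with normalization within GC bins. DESeq2 called 1 sum in K, where edgeR called 2.71% of all loci. In C the sum of Tgfbr2 (log2FC -0.08, adjusted p = 0.268) and that of Il10ra (log2FC -0.13, adjusted p = 0.406) had an unadjusted p under 0.05, DESeq2 called 0, and 0.426% of all loci were called. CK against C called 0 sums (4 at an unadjusted p under 0.05, 0 with DESeq2, 4.05% of all loci), the lowest adjusted p being that of Tgfbr1 (log2FC -0.14, adjusted p = 0.0318). CK against K called 0 (1 at an unadjusted p under 0.05, 0 with DESeq2, 0.00% of all loci), as did K against C (1, 0 and 0.658%) and the interaction (0, 0 and 0.0885%). For the interaction the log2 values of the 10 sums lay between -0.019 and 0.059, with standard errors of 0.04 to 0.08.

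The loci also differed in their overall level. Per kb of peak, WT accessibility was highest at Il21r (22.6 ± 1.04 CPM per kb, SD, n = 4) and Il4ra (21.01 ± 0.981), whose libraries overlapped and which share most of their peaks. Il9r followed at 18.4 ± 0.865, then Ifnar1 (16.5 ± 0.821) and Ifngr1 (16.4 ± 0.454), which overlapped each other. The Il9r value is that of a window in which 5 of 13 peaks are promoters of other coding genes. Of its WT mean sum of 247 CPM, the peak taken as the Il9r promoter held 3.03 CPM. The Il9r gene body peak with an octamer held 10.5 CPM. Tgfbr2 (15.2 ± 0.453), Tgfbr1 (14.3 ± 0.723) and Il10ra (14.1 ± 1.17) each overlapped the next in this order, and Il6ra (11.3 ± 0.133) and Il6st (10.6 ± 0.315) were lowest and did not overlap. In CK the levels were 16.2 ± 0.370 at Il9r, 12.6 ± 0.608 at Tgfbr1 and 13.6 ± 0.174 at Tgfbr2.

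The motifs were spread over called and uncalled receptor peaks. A STAT site was found in 22 of the 138 central windows (15.9%, against 8.22% of all peaks), a PU.1/SPIB site in 13 (9.42% against 5.84%) and an octamer in 6 (4.35% against 4.17%). At least 1 of the 3 was present in 37 of the 138 peaks and in 5 of the 15 lost ones. The 6 octamer peaks lie at Il9r, Il21r, Ifngr1, Tgfbr1 and, with 2, at Tgfbr2, and each had a log2FC below 0 in CK, from -0.73 to -0.25 with a median of -0.42. All 6 had an unadjusted p under 0.05 and 1, the upstream Tgfbr2 peak, passed. Among all 2732 octamer peaks measured, 58.3% had a log2FC below 0 in CK, with a median of -0.07. Of the 2732, 899 had an unadjusted p under 0.05, 7.03% were called and 4.83% lost. Of the 22 STAT-site receptor peaks 3 were lost in CK, against 3.31% of all peaks with a STAT site, and of the 13 PU.1/SPIB peaks 1 was lost, against 3.87%.

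Over the 17 libraries the locus whose sum most resembled that of a receptor, on another chromosome, was Ciita for Tgfbr1 (Pearson r = 0.947 of log2 CPM), F830045P16Rik for Tgfbr2 (0.941), Tgfbr2 itself for Ifngr1 (0.916) and Herpud1 for Il9r (0.898). It was Nkd1 for Il21r (0.910), Mmp7 for Il4ra (0.880), Sla for Il10ra (0.870), Tmprss11e for Il6ra (0.876), Evc2 for Il6st (0.795) and Cmtm6 for Ifnar1 (0.938). These are the highest values among all loci, over libraries that differ in genotype, and serve as a description only.

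A list of 30 other receptor genes gave a mixed picture, with a locus for 29 of them. In CK against WT 6 of 29 sums passed (20.7%), 3 lower (10.3%) and 3 higher. Among all loci 11.6% passed and 3.75% were lower. With normalization within GC bins 8 were lower (Ifnlr1, Csf2rb, Il2rb, Acvr1b, Il12rb1, Il12rb2, Il15ra and Il17ra) and 3 higher (Tgfbr3, Acvr1 and Osmr). That setting made 3900 of all 18082 loci lower and 743 higher. Without that normalization the interferon λ receptor Ifnlr1 (log2FC -0.43), the shared β chain Csf2rb (-0.37) and the IL-2 receptor chain Il2rb (-0.21) were lower. In the same fit the TGFβ co-receptor Tgfbr3 (0.62), the type I receptor Acvr1 (0.39) and the BMP receptor Bmpr2 (0.16) were higher. Tgfbr3 and Acvr1 kept this direction, opposite to that of Tgfbr1 and Tgfbr2, under all 30 alternatives run, whereas Bmpr2 turned to -0.08 (adjusted p = 0.0457) under normalization within GC bins. Ifnlr1 was also lower in K against WT (log2FC -0.40, adjusted p = 3.84e-05), the 1 such gene, and 0 of the 29 passed in C (5 at an unadjusted p under 0.05, 0 with DESeq2). Of all loci 2.71% passed in K and 0.426% in C.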

How the data were processed

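Bulk ATAC-seq was analysed for 17 mice (4 WT, 4 C, 4 K and 5 CK). The authors deposited raw fragment counts per consensus peak (mm10), labeled as output of featureCounts. Per the study's methods the pipeline was that of nf-core for ATAC-seq. Peaks were merged over genotypes upstream, so weak peaks seen in 1 genotype are included. All 65483 peaks were fitted together in edgeR 4.0.16 (R 4.3.3): TMM factors, quasi-likelihood test, 1 model over all libraries with no covariates, Benjamini-Hochberg adjustment over all peaks, calls at adjusted p under 0.01. Counts were also summed over the peaks within 50 kb of each of 18082 coding genes and tested in the same way, with the library sizes of the peak table. All peaks had at least 10 fragments in total, so none was filtered. CPM values use the TMM factors. The scripts were checked on simulated counts.

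The receptor genes, the peak rule and the lists were chosen with earlier results of these data known. Besides all 10 locus sums, peaks were named by rule: each gene's promoter and strongest distal peak, and the called peaks with the lowest adjusted p per comparison (at most 8), and, where none was called, the peak with the lowest p. Further lost peaks were named after their values were seen. Alternatives included DESeq2 1.42.0, other scalings and filters, a replicate block, GC bins, other windows and leaving out each library. Presence of Y-gene signal as a covariate, and the Il9r sum without 3 peaks, were added after seeing the data. The model had no replicate block. Deviations of same-numbered libraries correlated at over 0.1 in all 4 pairs of WT and C (0.14 to 0.224), where the block changed no receptor call, and in 12 of 24 pairs in all. Differently numbered libraries also reached such values, at 0.166 for WT replicate 2 with C replicate 1 and 0.274 for WT replicate 4 with CK replicate 5. 1 result on a naive B-cell marker is not reported here.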

Additional observations from a re-analysis of the deposited data

Results flagged for a closer look

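Of 84 groups of 4 or 5 libraries examined for a library far from the rest of its group (Dixon's test, which picks out about 1 in 20 groups by chance), 6 had one. Among the locus sums, K replicate 4 stood above the other K libraries at Il21r (590.1 CPM against 540 to 546) and at the overlapping Il4ra locus (552 against 508 to 512), and K replicate 1 stood above them at Ifnar1 (343 against 328 to 330.4). K replicate 3 stood apart at the gained peak over the last Il9r exon (3.72 CPM against 0.323 to 0.566) and at the Nprl3 promoter in the Il9r window (25.02 CPM against 39.0 to 41.7), on the side of C and CK in both. WT replicate 4 stood above the other WT libraries at the Il21r internal peak (21.8 CPM against 18.5 to 18.9), where CK against WT had an adjusted p of 0.0239 without it. In the interaction test 0 receptor peaks (3 at an unadjusted p under 0.05) and 0 sums (0 at that level) passed in edgeR, and 0 of either passed with DESeq2.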

How the results depend on the processing

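Among the 72 named values, 2033 results under alternatives were computed. Direction and side of the threshold were kept in 1821, 145 fell out of significance, 22 passed newly and 45 turned in sign, of which 44 were called under neither setting. No count of receptor calls moved by over 1.5 times with total counts as library sizes, DESeq2 size factors or Y-gene presence (chosen after seeing the data), nor did a count of peaks with another filter on low counts. The causes of the shifts were not tested. Deviations of same-numbered libraries correlated at -0.093 to 0.224, with 12 of 24 pairs over 0.1. Between WT and C all 4 pairs were over 0.1, and in the other comparisons 1 to 3 of 4. Differently numbered libraries reached 0.274 (WT replicate 4 with CK replicate 5).

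The receptor peaks called against WT in C (3) became 0 with total Y-peak signal as a covariate. In K (3) they became 5 with DESeq2, 8 with a replicate block, 1 with Y-peak signal, 1 within 25 kb, 14 at adjusted p under 0.05 and 0 with a fold over 1.5. In CK (16) they became 4 with Y-peak signal, all in the Il9r window, 37 at 0.05 and 7 with a fold over 1.5. With 100 peaks within 25 kb the CK count was 11 and with 197 within 100 kb it was 18. Between CK and C (5) the count became 8 with DESeq2, 8 with the block, 2 with Y-peak signal, 3 with GC bins, 3 with only these genotypes fitted, 13 at 0.05 and 2 with the fold. Between CK and K (0) it became 2 with DESeq2 and 2 at 0.05. Between K and C (4) it became 8 with DESeq2, 9 with the block, 0 with Y-peak signal, 10 at 0.05 and 1 with the fold.

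The locus sums called in K (0) became 1 with DESeq2, 2 with the block, 1 with GC bins, 1 without peaks near coding starts and 1 at 0.05. In CK (3) they became 1 with Y-peak signal, 6 with GC bins, 1 at 25 kb, 5 at 0.05 and 0 with the fold. Between CK and C (0) they became 1 with the block, 2 with GC bins, 2 without peaks near starts and 1 at 0.05, and between K and C (0) 1 without peaks near starts. The block gave 20 peaks and 3 sums in CK, and left both counts as they were in C (the same 3 peaks) and between CK and K.

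Leaving out 1 library at a time, the peak counts ranged from 1 to 3 in C, 1 to 3 in K, 6 (without WT replicate 4) to 18 in CK, 1 (without C replicate 4) to 5 for CK against C, 0 to 3 (without K replicate 3) for CK against K and 0 to 6 for K against C. In C the count was 1 without any single WT or C library. In K it was 1 without any single WT library and without K replicates 1 or 2. For CK against C it was 2 or 3 without C replicates 1 to 3, CK replicates 1, 2, 4 or 5, WT replicate 2 or K replicate 3. For K against C it was 0 without C replicate 4 or K replicates 1, 2 or 4, 1 without C replicates 1 to 3 or WT replicate 3, and 2 without WT replicate 2 or CK replicate 1. The CK locus sums ranged from 1 (without WT replicate 4) to 4.

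The 1 value that was called and turned in sign was the Il9r sum in CK, at 0.027 on the log2 scale with a window of 25 kb, where C had 0.031 and K 0.032. The Il9r sum in C was 0.13 without peaks near starts. The Il9r promoter in CK became -0.31 with Y-peak signal, -0.012 with Y-gene presence and -0.25 with GC bins, and ranged from -0.14 to 0.17 leaving out 1 library. The Il4ra promoter became 0.015 with Y-peak signal (-0.048 to 0.023 leaving out 1 library), and the Il6ra promoter -0.011 with it and -0.054 with GC bins (-0.029 to 0.054). Leaving out 1 library gave -0.076 to 0.024 at the Il6st promoter and -0.044 to 0.018 at the Tgfbr1 promoter. The strongest Ifnar1 distal peak became 0.025 with the block and 0.0067 with GC bins (-0.098 to 0.041). The Il6ra sum in C became -0.018 with GC bins, -0.0050 at 25 kb and -0.019 without peaks near starts (-0.00724 to 0.00895), and in CK 0.0056 at 100 kb. The Ifnar1 sum in C became 0.018 with total counts, 0.0042 without peaks near starts and 0.0051 with factors of the locus table (-0.028 to 0.026), in CK 0.0023 with the block (-0.031 to 0.022), and in K ranged from -0.053 to 0.00099. The Tgfbr1 sum in C became 0.022 with Y-peak signal, and that of Il6st in K ranged from -0.050 to 0.013.

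Il21r and Il4ra share 13 peaks, so that their sums are not independent.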
